A study of Mus musculus with 8 samples.

Results

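The genes described here are 9 genes that make, carry or bind hyaluronan and chondroitin sulfate, the long sugar chains of the matrix around cells. They are the hyaluronan synthases Has1, Has2 and Has3, the hyaluronan receptor Cd44, the proteoglycan core proteins Vcan and Cspg4, the chondroitin chain-building enzymes Chsy1 and Chpf, and the chondroitin sulfotransferase Chst11. They were chosen by symbol for their role, and all 9 were measured, among 22180 genes in all. Each gene was read from the probe set that names it alone and had the highest mean over all arrays. Expression was measured in primary hepatic stellate cells of BALB/c mice, an inbred strain, on 8 Affymetrix arrays, 2 in each of 4 groups. The groups were cells kept in culture for 10 days, cells isolated after 2 weeks and after 4 weeks of carbon tetrachloride (CCl4), a liver toxin that causes fibrosis, and quiescent cells taken at 0 hours. The CCl4 and quiescent cells were not seeded. A protocol text attached to every sample names valproic acid, a histone deacetylase inhibitor, at 2.5 mM from shortly after seeding, while the titles and treatment labels do not name it. The sources used here leave unsettled if the cultured cells were exposed to it.

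Hyaluronan is an unsulfated chain that the HAS enzymes build at the plasma membrane from UDP-glucuronic acid and UDP-N-acetylglucosamine and extrude directly into the matrix. Chondroitin sulfate is instead built in the Golgi on a core protein such as versican, polymerised by chondroitin synthases acting with chondroitin polymerizing factor, and sulfated by enzymes such as CHST11. Versican binds hyaluronan through its N-terminal globular domain and CD44 binds hyaluronan at the cell surface. Stellate cells store vitamin A in the healthy liver and become matrix-producing myofibroblasts on injury or on plastic, and hyaluronan accumulates in fibrotic liver.

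Values are the log2 levels that the authors deposited after RMA normalization. A level belongs to its own probe set, so levels of different genes are not set against each other. Background was gauged from 1394 genes of olfactory and vomeronasal receptors, mostly silent outside sensory tissue, whose mean levels had a 95th percentile of 4.69 log2 units, called the background guide here. Changes are log2 differences ± standard error (SE) from limma's moderated test, with 2 arrays per group and Benjamini-Hochberg adjusted p over all 22180 genes. A gene was said to rise or fall where this adjusted p was under 0.05. Nothing in the labels ties a group's arrays to separate animals or separate cultures. The p-values therefore reflect the spread of these samples alone, and that spread may be technical. In bulk samples such as these, fewer cells of a type and less RNA per cell cannot be told apart.

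Stellate cell markers were present on every array: desmin (Des), a filament protein of these cells, lay at 9.67 to 10.08. The list of 8 activated stellate markers had array medians of 11.33 and 11.30 in culture, 11.54 and 11.34 after 2 weeks of CCl4, and 11.34 and 11.55 after 4 weeks, against 7.33 and 7.93 in quiescent cells. The list of 10 quiescent stellate markers had medians of 6.96 and 6.60 in culture, 10.76 and 11.00 after 2 weeks, and 10.97 and 10.96 after 4 weeks, against 10.66 and 10.90 in quiescent cells. These medians hide falls after CCl4. Of the 10, 8 fell and 0 rose in culture, and 5 fell and 1 rose at each CCl4 time. The median change of the list was -4.66 in culture, -0.70 after 2 weeks and -0.64 after 4 weeks. The quiescent arrays also carried the highest hepatocyte marker medians, 9.05 and 7.81, and the highest sinusoidal endothelial ones, 9.63 and 8.78. In culture the hepatocyte medians were 4.91 and 5.13 and the endothelial ones 5.35 and 4.81. The CCl4 arrays lay between, at 5.99 to 7.61 for the hepatocyte list and 6.53 to 7.79 for the endothelial list. Of 10 macrophage markers, 9 fell in culture, 1 rose and 1 fell after 2 weeks, and 9 fell after 4 weeks. Marker counts here and below are to be read beside the shares over all genes. Those were 12.9% risen and 10.3% fallen in culture, 2.34% and 2.43% after 2 weeks, and 4.04% and 4.67% after 4 weeks. Lymphocyte markers stood above the background guide for 3 of 9 genes on every array, and cholangiocyte markers for 3 or 4 of 5.

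**Figure D1:**
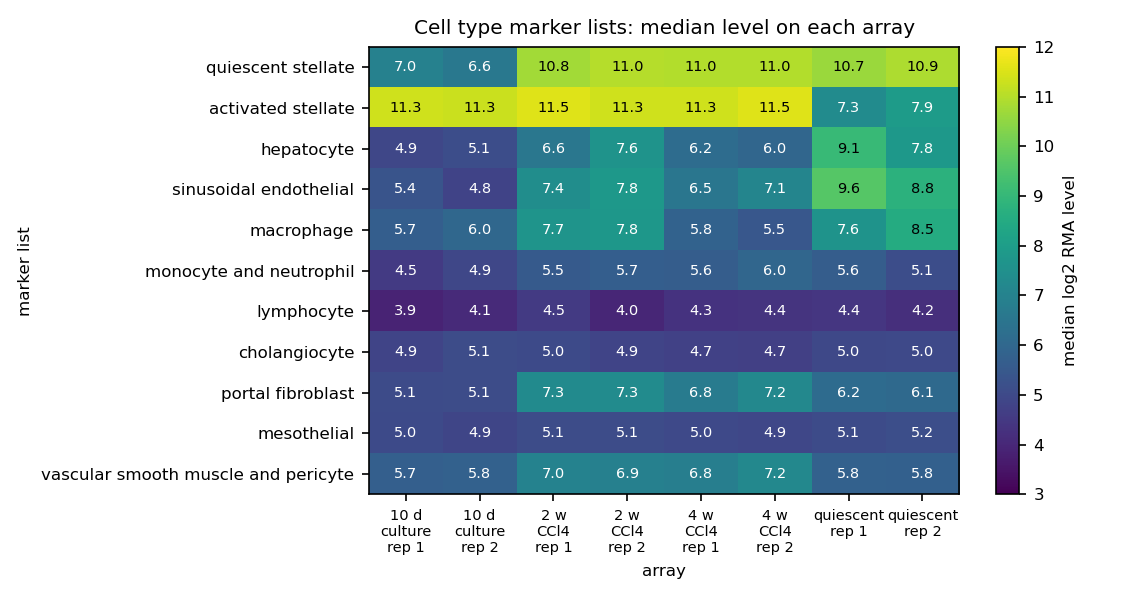
Median log2 RMA level of each cell type marker list (vertical axis) on each of the 8 arrays (horizontal axis), with the value printed in each cell. Activated stellate markers were high on all 6 cultured and CCl4 arrays, and hepatocyte and sinusoidal endothelial markers were highest on the 2 quiescent arrays.

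Has1 and Has2 are both hyaluronan synthases. Has2 rose 8.64-fold in 10-day culture, where Has1 did not pass the test, and Has1 rose 3.15-fold after 2 weeks and 3.35-fold after 4 weeks of CCl4. Has2 also rose after 4 weeks of CCl4, 1.87-fold. Has3 passed the test in 0 of the 5 comparisons.

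Has1 had levels of 4.50 and 4.74 in culture, 6.51 and 6.17 after 2 weeks of CCl4, and 6.63 and 6.23 after 4 weeks, against 4.68 and 4.69 in quiescent cells. All 4 CCl4 arrays stood above the cultured and quiescent arrays, which lay at the background guide and overlapped. The size of the Has1 fold changes after CCl4 therefore rests partly on the array's own floor. The change was 1.65 ± 0.18 after 2 weeks (adjusted p = 0.00215) and 1.74 ± 0.18 after 4 weeks (adjusted p = 0.000873). In culture it was -0.07 ± 0.18 (adjusted p = 0.865), with a 95% interval of -0.49 to 0.35 that is not adjusted for the number of genes. The difference of culture from the mean of both CCl4 times was -1.77 ± 0.16 (adjusted p = 8.84e-05).

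Has2 had levels of 7.31 and 7.54 in culture, 4.77 and 4.99 after 2 weeks of CCl4, and 5.28 and 5.15 after 4 weeks, against 4.32 and 4.30 in quiescent cells. The cultured arrays stood well above all others, and each pair of groups was apart. The quiescent levels were below the background guide, so the size of the fold change rests partly on the array's own floor. The change was 3.11 ± 0.15 in culture (adjusted p = 2.62e-06), 0.57 ± 0.15 after 2 weeks (adjusted p = 0.0732, interval 0.23 to 0.91) and 0.90 ± 0.15 after 4 weeks (adjusted p = 0.00762). The 4-week call was lost without the first 4-week array (adjusted p = 0.0753). Culture exceeded the CCl4 mean by 2.38 ± 0.13 (adjusted p = 5.18e-06). A further probe set lists Has2 together with its antisense transcript Has2os, and was not used. Its quiescent levels, 3.89 and 3.98, were below the background guide. Its change was 0.90 in culture, 0.33 after 2 weeks and 0.26 after 4 weeks. With limma's p adjusted over all probe sets, the culture change alone passed (adjusted p = 0.038, 0.613 and 0.673).

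Has3, the remaining synthase, lay below the background guide on every array. Its levels were 4.11 and 4.24 in culture, 4.06 and 4.25 after 2 weeks of CCl4, and 4.15 and 4.40 after 4 weeks, against 4.30 and 4.52 in quiescent cells. No level can be separated from background there, and adjusted p ran from 0.372 to 0.919 over the 5 comparisons. With arrays centred on housekeeping genes, a scaling that lowers the median of all genes in culture, the culture change of Has3 was -0.57 and passed (adjusted p = 0.0242).

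**Figure D2:**
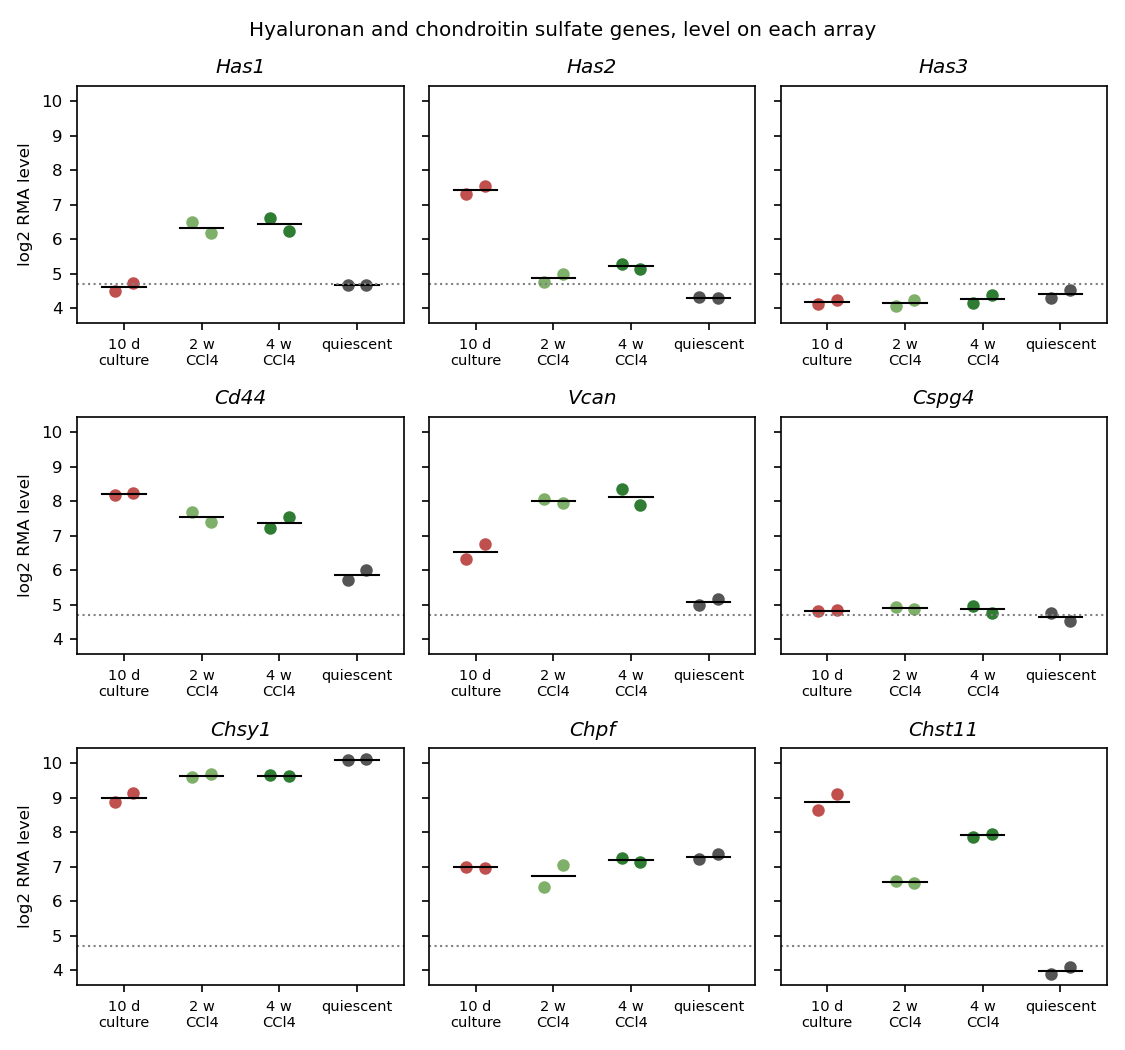
Log2 RMA level of each of the 9 genes (vertical axes) in each group (horizontal axes), with points for the 2 arrays of a group, a line for their mean and a dotted line at the background guide of 4.69. Has2 was highest in culture, Has1 and Vcan were highest in CCl4 cells, Chst11 stood apart in all 4 groups, and Has3 lay under the dotted line throughout.

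Cd44, the main cell surface receptor for hyaluronan, rose in all 3 comparisons with quiescent cells. Its levels were 8.18 and 8.22 in culture, 7.68 and 7.39 after 2 weeks of CCl4, and 7.21 and 7.54 after 4 weeks, against 5.71 and 6.02 in quiescent cells. Every cultured array was above every CCl4 array, and both CCl4 times overlapped each other. The rise was 5.06-fold in culture (2.34 ± 0.18, adjusted p = 3.06e-05), 3.19-fold after 2 weeks (1.68 ± 0.18, adjusted p = 0.00171) and 2.85-fold after 4 weeks (1.51 ± 0.18, adjusted p = 0.0016). Culture exceeded the CCl4 mean by 0.75 ± 0.16 (adjusted p = 0.00843). That last call was lost without the first cultured array (adjusted p = 0.0536), without the second (adjusted p = 0.0685), and with arrays centred on housekeeping genes, where the difference was 0.45 (adjusted p = 0.0551).

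Leukocytes also carry Cd44. Ptprc, the pan-leukocyte surface phosphatase, had levels of 5.24 and 5.33 in culture, 7.12 and 7.60 after 2 weeks of CCl4, and 6.82 and 6.67 after 4 weeks, against 6.93 and 6.34 in quiescent cells. It fell in culture (-1.35 ± 0.22, adjusted p = 0.00239). Ccr2, a chemokine receptor of monocytes, rose after 2 weeks (1.32 ± 0.20, adjusted p = 0.00771) and after 4 weeks (0.79 ± 0.20, adjusted p = 0.0411). Cd68, a macrophage lysosomal protein, rose after 2 weeks (1.02 ± 0.16, adjusted p = 0.0108) and had a change of -0.39 ± 0.16 after 4 weeks (adjusted p = 0.219). Of the 10 macrophage markers, Cd68 was the 1 that rose after 2 weeks, while 1 fell then and 9 fell after 4 weeks. The 8 monocyte and neutrophil markers had array medians of 5.54 and 5.69 after 2 weeks and 5.64 and 5.95 after 4 weeks, against 5.64 and 5.13 in quiescent cells, and 1 of the 8 rose at each time. The part of such cells in the Cd44 changes of cultured and CCl4 cells was not tested.

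Vcan encodes versican, the large chondroitin sulfate proteoglycan that binds hyaluronan, and it rose in all 3 comparisons with quiescent cells. Its levels were 6.33 and 6.75 in culture, 8.07 and 7.96 after 2 weeks of CCl4, and 8.37 and 7.89 after 4 weeks, against 4.997 and 5.16 in quiescent cells. All 4 CCl4 arrays stood above both cultured arrays, which stood above both quiescent arrays. The rise was 2.76-fold in culture (1.46 ± 0.20, adjusted p = 0.000888), 7.66-fold after 2 weeks (2.94 ± 0.20, adjusted p = 0.000167) and 8.28-fold after 4 weeks (3.05 ± 0.20, adjusted p = 0.000108). Culture lay below the CCl4 mean by a difference of -1.53 ± 0.18 (adjusted p = 0.000345).

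Portal fibroblasts and mesothelial cells are other matrix-rich cells of the liver. Some portal fibroblast markers rose in CCl4 cells and 0 fell, while mesothelial markers went both ways after 4 weeks. The 5 portal fibroblast markers had array medians of 5.05 and 5.10 in culture, 7.31 and 7.33 after 2 weeks of CCl4, and 6.75 and 7.19 after 4 weeks, against 6.16 and 6.08 in quiescent cells. Of these 5, 3 rose after 2 weeks, 2 rose after 4 weeks, and 3 fell and 1 rose in culture. Of 6 mesothelial markers, Wt1 rose after 2 weeks (1.78 ± 0.24, adjusted p = 0.00517) and after 4 weeks (1.54 ± 0.24, adjusted p = 0.00545), and it was the 1 that rose. Krt8, a keratin of the same list, had a change of -0.60 ± 0.17 after 2 weeks (adjusted p = 0.0893) and fell after 4 weeks (-1.35 ± 0.17, adjusted p = 0.00191). Msln, a defining marker, lay at 4.54 to 4.88 on all arrays, at the background guide. The smooth muscle and pericyte list had medians of 7.01 and 6.93 after 2 weeks and 6.84 and 7.18 after 4 weeks, against 5.78 and 5.76 in quiescent cells, and of its 7 genes 3 rose and 3 fell after 2 weeks and 4 rose and 3 fell after 4 weeks. The 3 that fell at both times were Rgs4, Kcnj8 and Abcc9, with changes of -1.26 to -2.92. Their part in the Has1 and Vcan changes was not tested.

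Cspg4 encodes the transmembrane chondroitin sulfate proteoglycan NG2 of pericytes. Its levels were 4.81 and 4.85 in culture, 4.94 and 4.87 after 2 weeks of CCl4, and 4.98 and 4.77 after 4 weeks, against 4.77 and 4.53 in quiescent cells. All lay close to the background guide and within a narrow band. Its change was 0.18 ± 0.15 in culture (interval -0.15 to 0.52), 0.25 ± 0.15 after 2 weeks (interval -0.08 to 0.59) and 0.22 ± 0.15 after 4 weeks (interval -0.11 to 0.56), with adjusted p of 0.473, 0.457 and 0.485.

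Chst11, which adds sulfate to the N-acetylgalactosamine residues of chondroitin, had the largest change of the 9 genes in culture and after 4 weeks of CCl4. Its levels were 8.64 and 9.11 in culture, 6.59 and 6.52 after 2 weeks of CCl4, and 7.87 and 7.95 after 4 weeks, against 3.89 and 4.08 in quiescent cells. No pair of groups overlapped, and the order ran from culture through 4 weeks and 2 weeks to quiescent cells. The rise was 29.7-fold in culture (4.89 ± 0.18, adjusted p = 4.59e-07), 5.94-fold after 2 weeks (2.57 ± 0.18, adjusted p = 0.000167) and 15.2-fold after 4 weeks (3.92 ± 0.18, adjusted p = 1.91e-05). The quiescent levels were below the background guide, so these fold changes are measured against the floor of the array.

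Chst11 was also higher after 4 weeks than after 2 weeks of CCl4, by 1.35 ± 0.18 (2.56-fold, adjusted p = 0.0429). That call was lost without any 1 of the 6 cultured and CCl4 arrays, with adjusted p of 0.0708 without either cultured array, 0.152 and 0.324 without the first and second 2-week arrays, and 0.372 and 0.381 without the first and second 4-week arrays. It was also lost when p was adjusted over all probe sets (adjusted p = 0.23). The difference itself stayed between 1.31 and 1.40 in those fits. Culture exceeded the CCl4 mean by 1.65 ± 0.15 (adjusted p = 0.000103).

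Chsy1, a chondroitin synthase that lengthens the chain, went the other way in culture. Its levels were 8.87 and 9.13 in culture, 9.59 and 9.68 after 2 weeks of CCl4, and 9.64 and 9.63 after 4 weeks, against 10.08 and 10.13 in quiescent cells. The quiescent arrays were the highest, the cultured arrays the lowest, and both CCl4 times overlapped. Chsy1 fell in culture by 1.10 ± 0.14 on the log2 scale (2.14-fold lower, adjusted p = 0.000598). After 2 and 4 weeks of CCl4 the change was -0.46 ± 0.14 at both times (adjusted p = 0.12 and 0.0887). Chsy1 is the only gene of the 9 with another probe set of its own. With the mean of both, the change was -0.62 after 2 weeks (adjusted p = 0.0322) and -0.64 after 4 weeks (adjusted p = 0.0193), both past the threshold. The other probe set alone had larger changes, -1.72 in culture, -0.78 after 2 weeks and -0.81 after 4 weeks. With limma's p adjusted over all probe sets, its culture and 4-week changes passed (adjusted p = 0.000505, 0.0585 and 0.0302, in the same order). Culture lay below the CCl4 mean by a difference of -0.64 ± 0.12 (adjusted p = 0.00574), a call lost without the first cultured array (adjusted p = 0.0684).

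Chpf, the chondroitin polymerizing factor that works with the synthases, passed the test in 0 of the 5 comparisons. Its levels were 6.99 and 6.97 in culture, 6.41 and 7.05 after 2 weeks of CCl4, and 7.26 and 7.13 after 4 weeks, against 7.22 and 7.36 in quiescent cells. The first 2-week array was low and set the wide spread of that group. The change was -0.31 ± 0.20 in culture (interval -0.77 to 0.16), -0.56 ± 0.20 after 2 weeks (interval -1.02 to -0.10) and -0.10 ± 0.20 after 4 weeks (interval -0.56 to 0.37), with adjusted p of 0.36, 0.194 and 0.875. Without the second 2-week array the 2-week change was -0.88 and passed (adjusted p = 0.0446), and with arrays centred on housekeeping genes the culture change was -0.64 and passed (adjusted p = 0.0357).

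Counted together, 4 of the 9 genes rose and 1 fell in culture, where 12.9% of all genes rose and 10.3% fell, 23.2% in all. After 2 weeks of CCl4, 4 rose and 0 fell, where 2.34% of all genes rose and 2.43% fell, 4.77% in all. After 4 weeks, 5 rose and 0 fell, where 4.04% of all genes rose and 4.67% fell, 8.71% in all. With the mean of its probe sets, Chsy1 fell at both CCl4 times, by limma's adjusted p of 0.0322 and 0.0193. The 2-week fit gave 1 fall without the second 2-week array. The median change of the 9 was 0.18 in culture, 0.57 after 2 weeks and 0.90 after 4 weeks, against 0.01, 0.00 and -0.00 over all genes. Cd44, Vcan and Chst11 were the 3 that rose in all 3 comparisons, which share the quiescent arrays.

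Between 4 and 2 weeks of CCl4, 1 of the 9 rose, where 0.0271% of all genes rose and 0.0586% fell, 0.0857% in all. For the other 8 the difference ran from -0.16 for Cd44 to 0.46 for Chpf. Between culture and the CCl4 mean, 3 of the 9 were higher (Has2, Cd44 and Chst11) and 3 lower (Has1, Vcan and Chsy1), where 12.6% of all genes were higher and 8.72% lower, 21.3% in all.

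**Figure D3:**
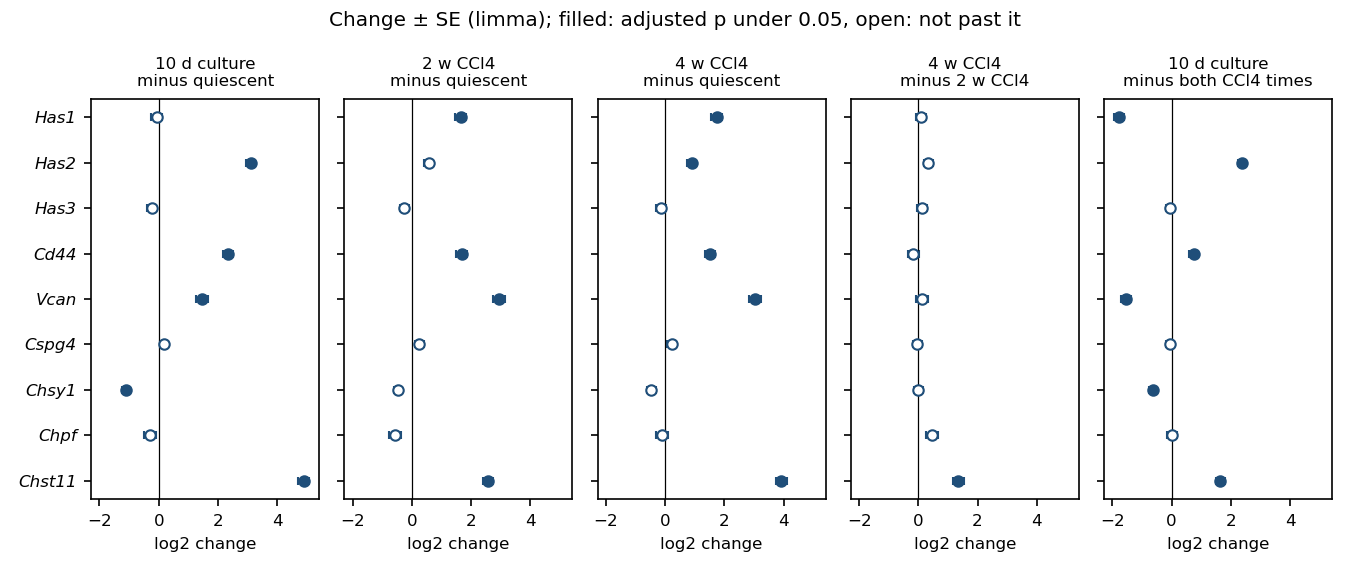
Log2 change of each of the 9 genes (vertical axis) in each of the 5 comparisons (horizontal axes), with bars of 1 SE, filled points past an adjusted p of 0.05 and open points not past it. Chst11 lies far right in culture, at 4.89, and after 4 weeks of CCl4, at 3.92. Has2 in culture, at 3.11, and Vcan after 2 and 4 weeks of CCl4, at 2.94 and 3.05, follow. Chsy1 in culture, at -1.10, lies left of 0.

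The promoter bases of 4 of these genes are shown because they cover the main patterns: Chst11 and Vcan, which rose in all 3 comparisons with quiescent cells, Has1, which rose after CCl4, and Chsy1, which fell in culture. Each run is the 250 bases before the annotated start, 5′ to 3′ on the gene's strand, from RefSeq on GRCm38.p6. They lie at chr10:82985247-82985496 (plus strand) for Chst11, chr13:89742513-89742762 (minus strand) for Vcan, chr17:17855189-17855438 (minus strand) for Has1 and chr7:66109242-66109491 (plus strand) for Chsy1. Capitals mark matches to the KLF/SP motif CCGCCC on either strand, and in Chsy1 also the E-box CACGTG.
Chst11: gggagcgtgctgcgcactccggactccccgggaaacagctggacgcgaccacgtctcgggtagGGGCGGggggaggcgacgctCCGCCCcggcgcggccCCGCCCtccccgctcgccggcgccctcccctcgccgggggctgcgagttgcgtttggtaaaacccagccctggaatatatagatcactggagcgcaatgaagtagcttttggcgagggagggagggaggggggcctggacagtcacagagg
Vcan: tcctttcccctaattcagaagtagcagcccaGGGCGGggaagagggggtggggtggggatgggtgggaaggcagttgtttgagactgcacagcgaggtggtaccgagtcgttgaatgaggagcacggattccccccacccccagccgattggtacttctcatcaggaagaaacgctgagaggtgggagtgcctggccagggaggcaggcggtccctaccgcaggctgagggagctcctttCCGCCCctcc
Has1: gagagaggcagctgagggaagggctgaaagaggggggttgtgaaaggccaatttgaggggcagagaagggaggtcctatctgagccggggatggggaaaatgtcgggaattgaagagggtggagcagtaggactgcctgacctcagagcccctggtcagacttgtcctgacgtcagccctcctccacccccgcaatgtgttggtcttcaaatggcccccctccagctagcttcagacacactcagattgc
Chsy1: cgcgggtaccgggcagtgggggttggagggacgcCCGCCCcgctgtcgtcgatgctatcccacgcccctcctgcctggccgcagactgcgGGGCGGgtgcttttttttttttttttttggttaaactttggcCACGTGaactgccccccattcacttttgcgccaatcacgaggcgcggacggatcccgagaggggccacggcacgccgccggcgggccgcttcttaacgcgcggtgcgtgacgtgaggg

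RefSeq promoter entries were matched for 7 of the 9 genes: Has1, Cd44, Vcan, Cspg4, Chsy1, Chpf and Chst11. In windows of 250 bases before to 50 after the start, searched on both strands, CCGCCC was found in 6 of the 7, against 35.7% of all 32851 windows. Has1 was the one without it. The E-box CACGTG was found in 1 of the 7, Chsy1, against 7.15% of all windows. The TEAD motif GGAATG, the site bound by the partners of YAP, was found in 0 of the 7, against 14.7% of all windows, and the AP-1 motif TGANTCA in 0 of the 7, against 7.81%. No matches overlapped, and a match describes letters only. Chst11 held 3 CCGCCC matches, at -187, -167 and -151 from the start, Vcan held them at -219 and -10, and Chsy1 at -216 and -160 with its E-box at -118.

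Around these genes, 98 others of the same pathways were tested in 10 lists. In culture 22 rose and 24 fell, after 2 weeks of CCl4 8 rose and 9 fell, and after 4 weeks 14 rose and 12 fell. Over all genes, 12.9% rose and 10.3% fell in culture, 2.34% and 2.43% after 2 weeks, and 4.04% and 4.67% after 4 weeks. The counts of each list below are to be read beside the same shares. The median change of the 98 was -0.04, -0.03 and -0.07. These counts depended on single arrays. The culture count of 46 dropped to 30 without the first cultured array. The 2-week count of 17 dropped to 4 and 9 without the first and second 2-week arrays and to 10 without either 4-week array. The 4-week count of 26 dropped to 7 and 10 without the first and second 4-week arrays. Calls printed with a change for a gene named below were kept in every fit with 1 array left out unless a loss is given. The choice of what to print was made after values were seen. Some calls not printed, those of Sulf1, Ambp and Stab2 after 2 weeks among them, were lost in at least 1 such fit.

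Of the genes of precursor supply, Ugdh had the smallest p in each comparison with quiescent cells. Ugdh, the dehydrogenase that makes UDP-glucuronic acid for both chains, had levels of 10.01 and 10.12 in culture, 9.08 and 9.10 after 2 weeks of CCl4, and 9.49 and 9.35 after 4 weeks, against 8.09 and 7.86 in quiescent cells. All 6 activated arrays stood above both quiescent arrays. It rose 4.26-fold in culture (2.09 ± 0.14, adjusted p = 1.58e-05), 2.18-fold after 2 weeks (1.12 ± 0.14, adjusted p = 0.00415) and 2.72-fold after 4 weeks (1.45 ± 0.14, adjusted p = 0.000674). Gnpnat1, of the UDP-N-acetylglucosamine route, rose in culture by 1.46 ± 0.26 (adjusted p = 0.00325). After 4 weeks Gfpt2, of the same route, had a larger change than Ugdh, 1.81 ± 0.44 (adjusted p = 0.0372), a call lost without any 1 of the 6 cultured and CCl4 arrays (adjusted p = 0.0643 to 0.178). Of the 8 precursor genes, 4 rose in culture, 2 after 2 weeks and 4 after 4 weeks, with 1 fall after 4 weeks. That fall, of Ugp2, was lost in every fit with 1 array left out, where its change was -0.63 to -0.49. With 1 array left out, 2 to 5 rose in culture, 1 to 2 after 2 weeks and 1 to 3 after 4 weeks.

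Of 16 hyaluronan-binding and assembly genes, 1 rose in each comparison with quiescent cells, and it was not the same one in culture as in CCl4. Tnfaip6, whose product TSG-6 transfers heavy chains onto hyaluronan, had levels of 5.49 and 5.66 in culture, 9.44 and 9.55 after 2 weeks of CCl4, and 9.65 and 9.76 after 4 weeks, against 7.09 and 6.51 in quiescent cells. The CCl4 arrays were highest and the cultured arrays lowest. It rose by 2.70 ± 0.20 after 2 weeks (6.49-fold, adjusted p = 0.00022) and 2.91 ± 0.20 after 4 weeks (7.51-fold, adjusted p = 0.000113). In culture Hmmr, the hyaluronan-mediated motility receptor, which is also a mitotic spindle protein, rose by 2.12 ± 0.17 (adjusted p = 3.98e-05), from the floor of the array, since its quiescent levels of 3.70 and 4.09 were below the background guide.

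In the same list 8 genes fell in culture and 5 at each CCl4 time, and with 1 array left out 6 to 8, 0 to 6 and 1 to 6 fell. The falls included Ambp, the hepatocyte-made precursor of bikunin, at 4.07 and 4.34 in culture, 7.72 and 8.58 after 2 weeks and 6.57 and 6.08 after 4 weeks, against 11.14 and 9.94 in quiescent cells. Its change was -6.34 ± 0.40 in culture (adjusted p = 1.04e-05) and -4.21 ± 0.40 after 4 weeks (adjusted p = 0.000543). The cultured levels were below the background guide, so the culture change was measured against the floor of the array. Of 9 breakdown and clearance genes, 5 fell and 2 rose in culture, 2 fell after 2 weeks and 3 fell after 4 weeks. With 1 array left out, 3 to 5 fell and 0 to 2 rose in culture, 0 to 5 fell after 2 weeks and 1 to 6 after 4 weeks. Stab2, the hyaluronan clearance receptor of sinusoidal endothelium, had levels of 4.92 and 5.15 in culture, 7.11 and 7.85 after 2 weeks and 6.42 and 6.92 after 4 weeks, against 9.66 and 8.98 in quiescent cells. Hepatocyte and endothelial marker medians were highest on the same quiescent arrays, as given above, and their part in these falls was not tested.

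In the chondroitin branch, Chsy3, another chondroitin synthase, had levels of 6.18 and 5.84 in culture, 7.13 and 7.53 after 2 weeks of CCl4, and 7.04 and 7.24 after 4 weeks, against 6.13 and 5.98 in quiescent cells. The CCl4 arrays were above all others, unlike those of Chsy1. It rose by 1.27 ± 0.19 after 2 weeks (adjusted p = 0.00719) and 1.08 ± 0.19 after 4 weeks (adjusted p = 0.00895), the second lost without the second 4-week array (adjusted p = 0.0823). With the mean of its probe sets, neither passed, at 0.69 after 2 weeks (adjusted p = 0.0637) and 0.61 after 4 weeks (adjusted p = 0.0716). Of the 3 elongation genes, 0 passed in culture by limma's adjusted p, 1 rose after 2 weeks, and 1 rose and 1 fell after 4 weeks. Of 7 enzymes that build the linker between core protein and chain, 2 rose in culture, 0 after 2 weeks and 1 after 4 weeks. Of 6 chondroitin sulfate breakdown genes, 1 rose and 1 fell in culture and 1 fell at each CCl4 time. Of 13 genes that modify chondroitin and dermatan sulfate, 3 rose and 2 fell in culture and 1 fell at each CCl4 time. With 1 array left out, 0 to 3 rose and 1 to 3 fell in culture. Papss2, which makes the sulfate donor, fell in culture by 1.84 ± 0.25 on the log2 scale (adjusted p = 0.000765). Of 13 other core proteins, 2 rose in culture (Ptprz1 and Thbd, by 1.74 ± 0.24 and 1.98 ± 0.34, adjusted p = 0.000882 and 0.00271), and 2 fell, among them Dcn, the small proteoglycan decorin (-0.75 ± 0.13, adjusted p = 0.0029). The quiescent Ptprz1 levels, 3.30 and 3.799, were below the background guide, so its change too was measured against the floor. After CCl4, 0 of the 13 changed at either time by limma's adjusted p.

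The heparan sulfate enzymes, which share the linker and donor pools, held Sulf1 and Sulf2, sulfatases that trim sulfate from heparan chains outside the cell. Sulf1 had levels of 8.35 and 7.96 in culture, 6.64 and 6.83 after 2 weeks of CCl4, and 7.43 and 7.20 after 4 weeks, against 5.96 and 5.85 in quiescent cells. The 4 groups did not overlap and stood in the same order as those of Chst11. Sulf1 rose by 2.25 ± 0.17 in culture (adjusted p = 3.18e-05) and 1.41 ± 0.17 after 4 weeks (adjusted p = 0.00189). Sulf2 rose in culture by 2.30 ± 0.15 (adjusted p = 1.5e-05). Of the 17 genes, 6 rose and 2 fell in culture, and 3 rose after 2 weeks and 5 after 4 weeks with 0 falls. With 1 array left out, 4 to 6, 0 to 2 and 1 to 5 rose, and 1 to 2, 0 and 0 to 1 fell. The 2 that fell in culture were Hs3st3b1 (-1.996 ± 0.19, adjusted p = 0.000122) and Hs6st1 (-0.76 ± 0.18, adjusted p = 0.0143), both sulfotransferases. The Hs6st1 call was lost without the first cultured array (adjusted p = 0.0907) and without the first quiescent array (adjusted p = 0.0501).

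Of 6 proteases known to cleave versican, 4 fell and 1 rose in culture. Adamts1 fell by 2.70 ± 0.19 on the log2 scale (adjusted p = 1.98e-05), Adamts4 by 2.15 ± 0.29 (adjusted p = 0.000734) and Adamts9 by 1.23 ± 0.14 (adjusted p = 0.000267). Adamts1 levels were 7.90 and 7.41 in culture, 9.93 and 10.25 after 2 weeks of CCl4, and 10.36 and 10.43 after 4 weeks, against 10.44 and 10.28 in quiescent cells. After 4 weeks of CCl4, 2 of the 6 rose, and 0 did so without the first or without the second 4-week array.

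**Figure D4:**
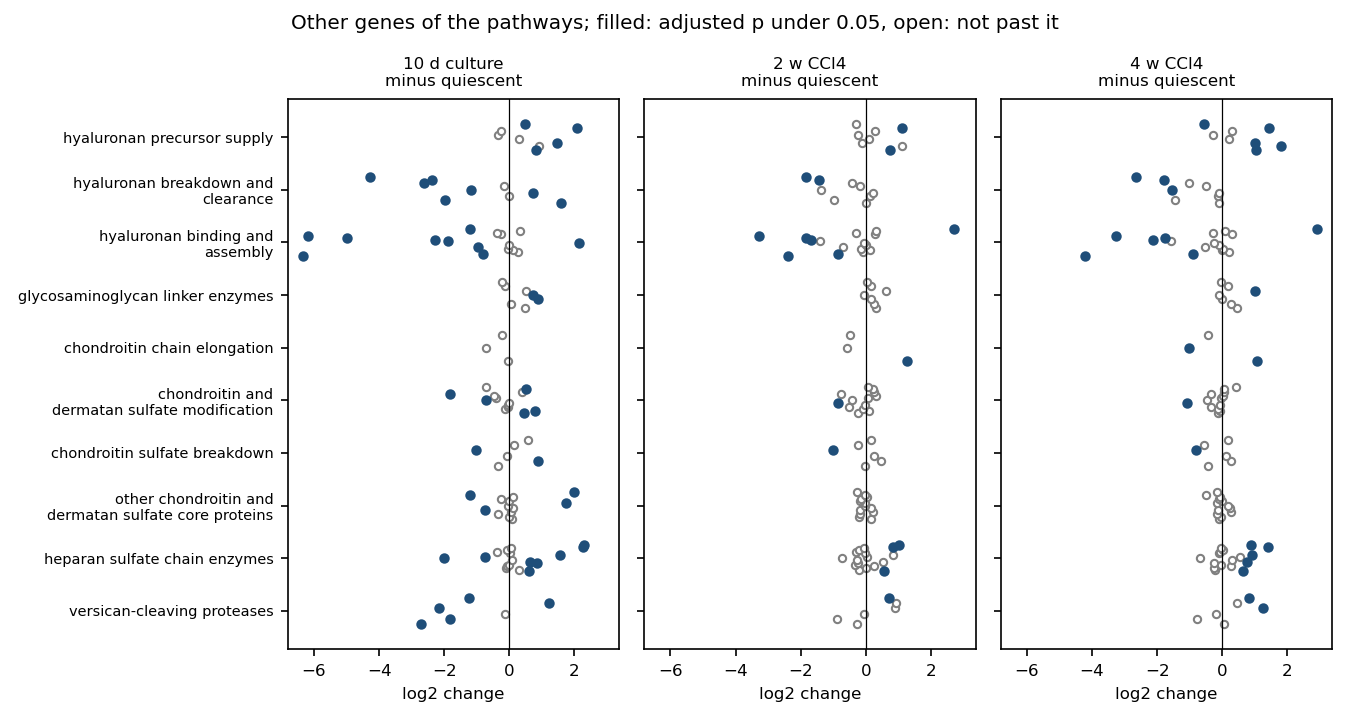
Log2 change against quiescent cells (horizontal axis) of each measured gene of the 10 pathway lists (rows) in culture and after 2 and 4 weeks of CCl4, with 1 point per gene, filled where adjusted p was under 0.05 and open otherwise. The binding and assembly list spans the widest range, from -6.34 (Ambp in culture) to 2.91 (Tnfaip6 after 4 weeks), the low end being measured against cultured levels under the background guide.

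For the 6 genes whose group means ranged over more than 1 log2 unit, the nearest genes were found by the root mean square distance of gene-centred profiles over the 8 arrays. Has1 lay nearest to Nlgn2 (0.221) and Colec12 (0.249), and Has2 to Ripk3 (0.168) and Dock5 (0.202). Cd44 lay nearest to S100a6 (0.130) and Pcdh7 (0.193), and Vcan to Pi15 (0.160) and Nrep (0.248). Chsy1 lay nearest to Ptprk (0.0747) and Tmem44 (0.0817). Chst11 had no neighbour as close, with Tgfb3 at 0.371 and Gprc5b at 0.458. The distance tends to grow with the range of a gene's group means, which was 4.89 for Chst11 and 1.10 for Chsy1. By Pearson correlation, Chst11 lay at 0.983 with Tgfb3 and 0.979 with Gprc5b, within the 0.961 to 0.993 of the other genes and their neighbours. The distances are in log2 units and, like the correlations, describe 4 groups of 2 arrays.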

How the data were processed

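Total RNA from isolated stellate cells was hybridised to 8 arrays after whole-transcriptome preamplification and biotin labelling, per the labels' protocols. The authors deposited log2 values for 41345 probe sets. Per the submitters' processing notes, these are RMA values from Affymetrix Expression Console. Their versions are not given in the sources used here. Since RMA scales arrays to one another, a shift common to most genes is removed. Array medians ran from 4.63 to 4.72. The number of arrays limits the precision.

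Probe sets were named from the platform annotation: 23521 had 1 symbol, 1814 several and 16010 were not named. Where a gene had more than 1 (1082 genes), its brightest probe set on average was taken. Genes, lists, tests and the rule for naming genes were chosen with earlier results of these data known. The rule names all 9 genes and, of each pathway list, at most the 3 genes with the smallest p in each direction against quiescent cells. A few further values of such a gene, of markers and of Tnfaip6 are given beside them.

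Testing used limma 3.58.1 under R 4.3.3 (lmFit and eBayes, without trend or robust options), two-sided, in 1 fit of 8 arrays with 4 residual and 4.75 prior degrees of freedom, and the same code was tested on simulated data. The comparisons were culture and each CCl4 time against quiescent cells, 4 against 2 weeks of CCl4, and culture against CCl4, both times averaged. Exact permutation of 2 arrays against 2 has a smallest p of 0.333 and was not used. Alternatives were the mean of a gene's probe sets, trend and robust options, a filter on dim genes, adjustment over all probe sets, the replicate number as a block, arrays of the compared groups alone, 2 other scalings, a 2-fold rule, and leaving out each array.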

Additional observations from a re-analysis of the deposited data

How the results depend on the processing

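With 2 arrays per group, calls near the threshold depended on single arrays. With 1 array left out, the count of the 9 genes called stayed at 5 in culture, and ran from 4 to 5 after 2 weeks, 4 to 5 after 4 weeks, 0 to 1 between 4 and 2 weeks of CCl4, and 4 to 6 between culture and CCl4. That of the 98 pathway genes ran from 30 to 47, 4 to 23, 7 to 31, 0 to 1 and 26 to 45. Between 4 and 2 weeks of CCl4, the count of the 9 genes was 0, not 1, when adjusted over all probe sets and also with the replicate number as a block. The pathway count was 29 in culture, 11 after 2 weeks and 21 between culture and CCl4 under the 2-fold rule, 6 after 2 weeks and 16 after 4 weeks when adjusted over all probe sets, and 5 after 2 weeks with the arrays of the compared groups alone. The causes were not tested.

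The labels give no shared animal or batch for same-numbered replicates. Deviations of same-numbered arrays correlated at -0.04 to 0.07 over all genes. A shared source that moved few genes would not show there, so pairing stays unknown. With the replicate block, the Chst11 difference between 4 and 2 weeks of CCl4 was 1.35 (adjusted p = 0.0633).

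Directions turned for changes near 0 that had not passed. With arrays centred on their median, Has1 in culture was 0.0176, Cspg4 between 4 and 2 weeks 0.0194 and Has3 between culture and CCl4 0.014. With arrays centred on housekeeping genes, where the median change of all genes was -0.32 in culture and -0.30 between culture and CCl4, against 0.01 and 0.00 on the deposited scale, Cspg4 in culture was -0.15, Chsy1 between 4 and 2 weeks -0.0424 and Chpf between culture and CCl4 -0.28, while Has3 (-0.57, adjusted p = 0.0242) and Chpf (-0.64, adjusted p = 0.0357) passed as lower in culture. With the mean of its probe sets, Chsy1 between 4 and 2 weeks was -0.0179. With 1 array left out, the range was -0.19 to 0.0497 for Has1 in culture, and between 4 and 2 weeks -0.11 to 0.29 for Has1, -0.0055 to 0.24 for Has3, -0.13 to 0.35 for Vcan, -0.14 to 0.0722 for Cspg4 and -0.0448 to 0.045 for Chsy1. Between culture and CCl4 it was -0.10 to 0.0234 for Has3 and -0.14 to 0.18 for Chpf. Over the settings tried for the 9 genes in the 5 comparisons, 718 values gave the same direction and side of the threshold, 16 lost a call, 5 gained one and 21 turned direction.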
